A study of Mus musculus with 7 samples.

Results

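The genes described here encode the channels that release calcium from the endoplasmic reticulum, namely the 3 ryanodine receptors Ryr1, Ryr2 and Ryr3 and the 3 inositol trisphosphate (IP3) receptors Itpr1, Itpr2 and Itpr3. They were taken by symbol from the gene rows of every mouse, and all 6 were among the 27998 genes in the tables. The set was chosen by the measured difference of Ryr1 between the genotypes in dSPNs of these same mice, so values of that contrast are given as a description, with no test. RNA of single nuclei was read from the striatum of 7 male C57BL6/J mice. The 3 wild-type (WT) mice were 14 months old, and 4 mice carried HttQ175/+, which is 1 copy of a knock-in allele of the huntingtin gene (Htt) carrying a long CAG repeat, a model of Huntington's disease present in every cell. Of these, replicate 1 had an age of 15 months and the other 3 an age of 14 months. A library was made per mouse, and the number given to a mouse links it to no other.

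Ryanodine receptors open when calcium itself rises near them, and so amplify calcium that entered through channels of the surface membrane. IP3 receptors open when IP3 is made after receptors coupled to Gq proteins activate phospholipase C. Ryr1 is best known as the channel of skeletal muscle and Ryr2 as that of heart, and Ryr3 is the third, more widely spread form. Itpr1 is the main IP3 receptor of neurons, Itpr2 is known for calcium signals of astrocytes, and Itpr3 is common in epithelial cells. Spiny projection neurons (SPNs) are the output neurons of the striatum. They are split into those of the direct pathway (dSPNs) and the indirect pathway (iSPNs), with a smaller eccentric kind.

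The promoters of the RefSeq tables (build GRCm38.p6) held entries for Ryr1, Ryr2, Itpr2 and Itpr3. The 250 bases before the annotated start of Ryr1 (chr7:29125152-29125401, minus strand) and of Ryr2 (chr13:12106946-12107195, minus strand) are shown because Ryr1 was far lower in HttQ175/+ SPNs and Ryr2 overlapped between the genotypes there. Capitals mark matches to a GC box (GGGCGG or CCGCCC) or a CCAAT box (CCAAT or ATTGG), which do not overlap here. Both strands were searched.
Ryr1: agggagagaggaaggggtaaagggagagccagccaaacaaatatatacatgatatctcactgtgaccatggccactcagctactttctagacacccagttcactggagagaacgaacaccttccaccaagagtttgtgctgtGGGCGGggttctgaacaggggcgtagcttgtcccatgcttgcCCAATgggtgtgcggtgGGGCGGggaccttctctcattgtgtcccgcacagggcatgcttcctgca
Ryr2: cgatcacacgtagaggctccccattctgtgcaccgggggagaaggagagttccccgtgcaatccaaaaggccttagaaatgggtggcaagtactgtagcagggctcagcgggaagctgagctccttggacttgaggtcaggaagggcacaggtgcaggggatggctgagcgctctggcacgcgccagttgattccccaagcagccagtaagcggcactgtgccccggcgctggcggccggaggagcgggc
The Ryr1 stretch held 2 GC boxes and 1 CCAAT box at 54.8% G and C with 6 CpG pairs, and the Ryr2 stretch held 0 of either motif at 63.2% G and C with 14 CpG pairs. Itpr2 had 4 GC boxes and 2 CCAAT boxes, and Itpr3 had 1 GC box and 0 CCAAT boxes. Of 32851 promoters of the same length 32.7% held a GC box and 33.8% a CCAAT box. A TATA box (TATAAA or TTTATA) was found in none of these 4 stretches and in 12.4% of all promoters. A match is a run of letters and does not show that a factor binds there.

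In the GENCODE vM21 annotation of mm10, Ryr1 lies on chromosome 7 (29003344 to 29125179, minus strand), Ryr2 on chromosome 13 (11553102 to 12106945, minus), and Ryr3 on chromosome 2 (112631355 to 113217096, minus). Itpr1 (108213096 to 108551109, plus) and Itpr2 (146108299 to 146502223, minus) are both on chromosome 6, and Itpr3 is on chromosome 17 (27057304 to 27122223, plus). Aven, on the other strand within Ryr3, held 218 unique molecular identifiers (UMIs, each counting 1 captured molecule), and Gm26604, on the other strand of Ryr1, held 34. No source used here gives whether counting used strand, so reads of such overlapping genes may be mixed. Over all nuclei the UMIs were 809 for Ryr1, 1988 for Ryr2, 4349 for Ryr3, 3400 for Itpr1, 260 for Itpr2 and 58 for Itpr3. These are tags from the 3' ends of transcripts and were not divided by length, so the levels of different genes are not ranked against each other.

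The deposited annotation put 4524 nuclei in 12 types, of which 1809 were dSPNs, 941 iSPNs, 166 eccentric SPNs, 468 oligodendrocytes, 300 astrocytes and 288 Sst interneurons. Median UMIs per nucleus ran from 2498 to 2599 in the WT mice and from 1657 to 2384.5 in the HttQ175/+ mice, which were thus shallower in every library. In dSPNs the medians were 2716 to 2816 in WT and 1647 to 2636 in HttQ175/+. Pairs of libraries shared at most 1 cell barcode. Microglia carried more of the 4 SPN markers (mean 4724 CPM in WT) than of their own (1980 CPM), and endothelial nuclei carried mural markers (7692 CPM) beside their own (7051 CPM). The part of such RNA in values of these 2 small types was not tested. None of the 4 SPN markers Ppp1r1b, Bcl11b, Rgs9 and Pde10a was at 0 in dSPNs, iSPNs or eccentric SPNs. Levels are means over nuclei of UMIs scaled to a total of 1000000 per nucleus (CPM), and fitted changes are log2 changes from limma, made relative to the bulk of genes by scaling (trimmed means of M values, TMM). That scaling moved the median of all genes in dSPNs by -0.12 on the log2 scale, from 0.14 to 0.02. A gene was called at a Benjamini-Hochberg adjusted p under 0.05.

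The tables had a feature that bears on 2 of the 6 genes: nuclei with exactly 1 UMI were absent or nearly absent for some abundant genes. Of 1232 nuclei with Itpr1, 0 held exactly 1 UMI, 666 held 2 and 566 held 3 or more. Of 1489 nuclei with Ryr3, 20 (1.34%) held exactly 1, and these were nuclei of 1130 to 1437 UMIs, 17 of them in HttQ175/+ replicate 2 and 3 in replicate 1. Of nuclei with Ryr1, 423 of 589 (71.8%) held exactly 1 UMI, and of those with Ryr2 954 of 1390 (68.6%) did. The same was true of 173 of 211 nuclei (82.0%) for Itpr2 and of 54 of 56 (96.4%) for Itpr3. Among 943 genes found in 1000 to 1500 nuclei the median share with exactly 1 UMI was 76.3%, 41 genes had none, and 113 were under 20%. The SPN markers Pde10a, Rgs9 and Ppp1r1b, which lie outside that range of nuclei, also had 0 such nuclei. For the dSPN marker Drd1 the share with exactly 1 UMI differed by genotype. It was 0% to 4.23% in WT mice and 20.9% to 62.5% in HttQ175/+ mice. No source used here names the step that removed these values. A nucleus had to hold 2 UMIs to count for Itpr1 and nearly so for Ryr3, which shallower nuclei reach less often, so for these 2 genes the dSPN and iSPN values in nuclei of like depth (2000 to under 3000 UMIs) are given beside those in all nuclei. In the other types the values are from all nuclei only.

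In WT mice the 6 genes were spread over the types in different ways. For genes in types with few nuclei the UMIs behind a level are given, and 95% Poisson intervals of summed counts cover counting error only.

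**Figure D1:**
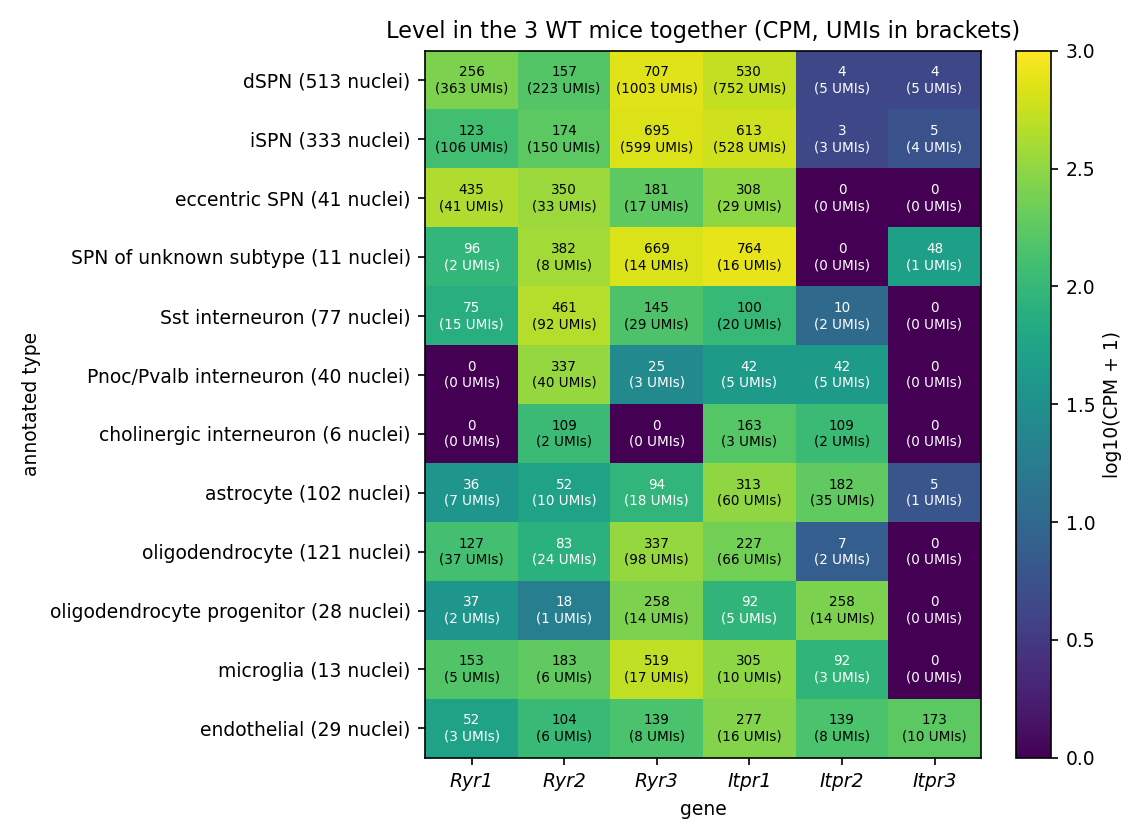
Level of each gene in each of the 12 annotated types, as CPM of the summed UMIs of the 3 WT mice, with the UMIs behind it in brackets. Colour is log10 of CPM plus 1. Ryr1 was 435 CPM in eccentric SPNs and 256 CPM in dSPNs, Ryr2 was 461 CPM in Sst interneurons, and Itpr2 reached 182 CPM in astrocytes against 3.53 CPM in dSPNs.

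Ryr1, summed over the WT mice, stood at 435 CPM in eccentric SPNs (interval 312 to 591, 41 UMIs), with 329 to 495 CPM in the 2 mice that had at least 10 such nuclei. It was 256 CPM in dSPNs (230.4 to 284) and 123 CPM in iSPNs (101 to 149). The intervals of eccentric SPNs and dSPNs were apart, and those of the next types in the order, dSPNs, microglia (5 UMIs), oligodendrocytes (127 CPM) and iSPNs, each overlapped their neighbour. In Pnoc/Pvalb interneurons Ryr1 had 0 UMIs in 40 nuclei, which allows up to 31.1 CPM by the interval. In a fit over both SPN types of all 7 mice, with the mouse as a block, the WT level of Ryr1 in dSPNs exceeded that in iSPNs by 0.97 ± 0.26 (SE) on the log2 scale. That contrast uses the WT dSPN values that entered the choice of genes, so it is a description with no test.

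Ryr2 was highest by its level in Sst interneurons, at 461 CPM (interval 372 to 566, 92 UMIs), followed by SPNs of unknown subtype (382 CPM from 8 UMIs), eccentric SPNs (350.5) and Pnoc/Pvalb interneurons (337). The intervals of these neighbours overlapped. It was 174 CPM in iSPNs and 157 CPM in dSPNs, whose intervals overlapped as well. The Sst interneuron interval (372 to 566) lay above those of iSPNs (147 to 204) and dSPNs (137 to 179).

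Ryr3 was highest in dSPNs (707 CPM, interval 664 to 753) and iSPNs (695 CPM, 640.4 to 753), with a log2 difference of -0.01 ± 0.11 that was not called (limma adjusted p = 0.983, 95% interval -0.24 to 0.22). In eccentric SPNs it was 181 CPM (105 to 289, 17 UMIs) and in Sst interneurons 145 CPM (97.4 to 209, 29 UMIs). By mouse, Ryr3 was 117 to 263 CPM in the 2 mice with at least 10 eccentric SPNs. In Sst interneurons it was 38.2 to 147 CPM by mouse. All of these lay below the 558 to 813 CPM of dSPNs and the 586 to 906 CPM of iSPNs. Itpr1 was 613 CPM in iSPNs (561 to 667) and 530.4 CPM in dSPNs (493 to 569.7). The fitted difference, dSPN minus iSPN, was -0.31 ± 0.13 on the log2 scale and was not called (adjusted p = 0.333). SPNs of unknown subtype had 764 CPM of Itpr1 from 16 UMIs in 11 nuclei, and eccentric SPNs had 308 CPM.

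Itpr2 was a gene of other cells. It stood at 258 CPM in oligodendrocyte progenitors (14 UMIs in 28 nuclei), 182 CPM in astrocytes (interval 127 to 254) and 139 CPM in endothelial nuclei (8 UMIs), against 3.53 CPM in dSPNs (1.15 to 8.23). Itpr3 was found in endothelial nuclei, at 173 CPM from 10 UMIs, and at 0 to 5.21 CPM in the other types except SPNs of unknown subtype, where 1 UMI stood for 47.8 CPM.

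Set against glia in WT mice, SPNs (the mean of dSPNs and iSPNs) had more Ryr2, Ryr3 and Itpr1 than astrocytes had, and less Itpr2, and all 4 were called where 41.2% of 5505 genes were. The log2 differences were 3.46 ± 0.25 for Ryr3, 2.19 ± 0.30 for Ryr2 and 1.40 ± 0.23 for Itpr1, and -3.86 ± 0.42 for Itpr2 (limma adjusted p from 1.34e-07 to 0.000199). Against oligodendrocytes 3 of these 4 were called, all higher in SPNs, where 25.4% of genes were called. These were Itpr1 (1.47 ± 0.23, adjusted p = 0.000268), Ryr3 (1.38 ± 0.25, adjusted p = 0.00108) and Ryr2 (1.17 ± 0.30, adjusted p = 0.0119), the last of which was not called once any 1 of the WT mice was left out (adjusted p up to 0.122). Ryr1, whose WT dSPN values entered the choice of genes, was higher in SPNs by 2.81 ± 0.33 than in astrocytes and by 0.57 ± 0.33 than in oligodendrocytes, a description with no test. SPN markers were also found in glia. By summed UMIs, Ryr1, Ryr2, Ryr3 and Itpr1 in WT oligodendrocytes stood at 42.8% to 52.5% of their level in dSPNs. SPN markers that define another cell type stood at 42.5% (Pde10a), 43.2% (Rgs9), 55.2% (Bcl11b), 32.0% (Drd1), 32.9% (Tac1) and 19.7% (Ppp1r1b). In WT astrocytes Pde10a stood at 29.1% and Rgs9 at 23.7% of the dSPN level by summed UMIs. Beside these stood 14.2% for Ryr1, 13.3% for Ryr3, 33.1% for Ryr2 and 58.9% for Itpr1 (interval 44.5% to 76.7%, too narrow for this gene). Summed UMIs weigh deep nuclei more than means over nuclei do. In WT astrocytes they gave 313 CPM of Itpr1 and 93.8 CPM of Ryr3, against means over nuclei of 189 and 47.5 CPM. In dSPNs they gave 530.4 and 707 CPM, against means of 495 and 699 CPM. The part of RNA from SPNs in the glial levels was not tested. For Itpr1 nuclei with exactly 1 UMI were absent, and for Ryr3 nearly so, and shallower nuclei reach 2 UMIs less often. Median depths in WT mice were 1339 to 1472.5 UMIs in astrocytes and 1902 to 2462 in oligodendrocytes. In dSPNs they were 2716 to 2816 and in iSPNs 2398 to 2660. The Ryr3 and Itpr1 differences from glia are from all nuclei, and the part of depth in them was not tested.

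Ryr1 was far lower in HttQ175/+ SPNs than in WT SPNs. In dSPNs the WT mice had 249, 262 and 262 CPM, and HttQ175/+ replicates 1 to 4 had 29.8, 33.2, 51.7 and 20.3 CPM. Every HttQ175/+ mouse was far below every WT mouse, and the WT mice hardly differed from each other. The means were 258 ± 7.30 CPM (SD, n = 3) and 33.8 ± 13.2 CPM (SD, n = 4), from 363 and 96 UMIs, and the fitted log2 change was -2.99 ± 0.24 (SE). Because this value brought the gene up, it is a description with no test. A lower CPM of a nuclear transcript in these pools cannot tell less RNA per nucleus from fewer nuclei that make it. The share of nuclei with a UMI cannot tell them apart either. At so few UMIs (363 in 513 WT and 96 in 1296 HttQ175/+ nuclei) it falls with the mean level, so it is a description. At least 1 UMI of Ryr1 was seen in 46.1% ± 2.60 of WT dSPN nuclei (SD, n = 3) and in 7.43% ± 3.22 of HttQ175/+ dSPN nuclei (n = 4). With every nucleus thinned to 1100 UMIs the shares were 27.1% ± 2.04 and 2.64% ± 0.398. In oligodendrocytes the thinned shares were 8.03% and 2.14%, at median depths of 1902 to 2462 UMIs in WT and 1788 to 2741 UMIs in HttQ175/+. Nuclei with Ryr1 held on average 1.52 to 1.61 UMIs of it in WT dSPNs and 1.00 to 1.24 in HttQ175/+ dSPNs. In dSPNs of 2000 to under 3000 UMIs the levels were 275, 292 and 275 CPM in WT and 31.5, 34.4, 34.8 and 19.2 CPM in HttQ175/+, which is 10.7% of the WT mean.

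**Figure D2:**
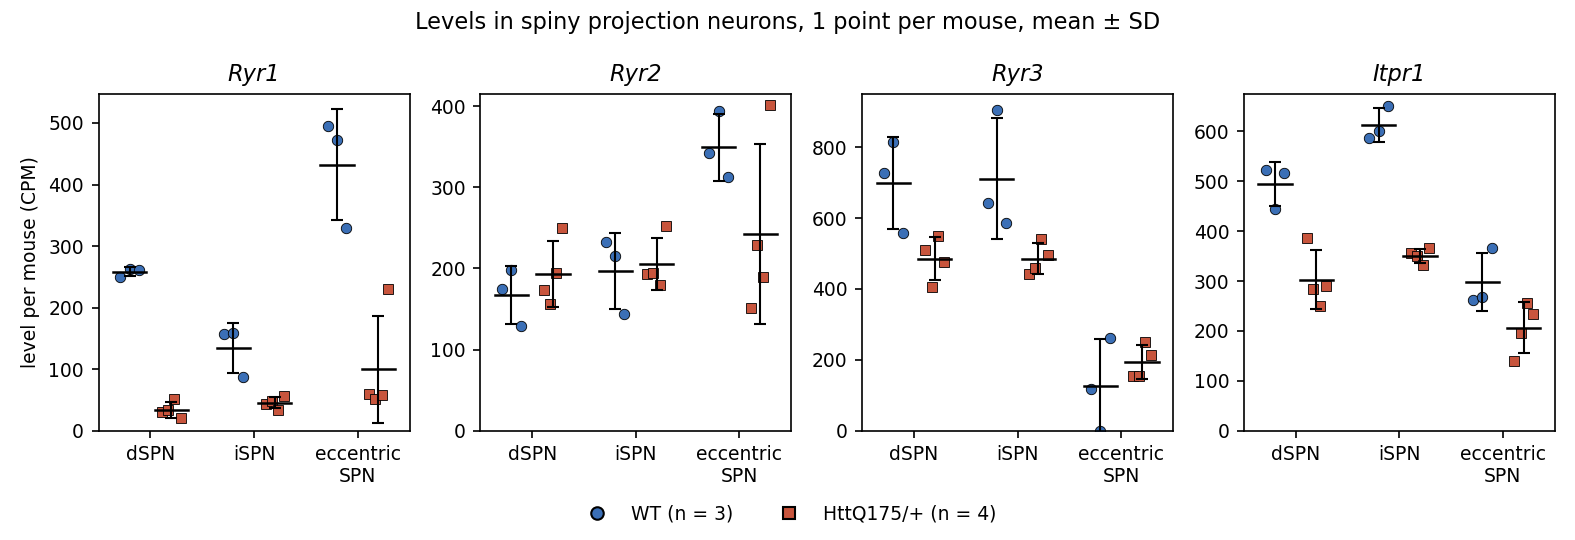
Level of Ryr1, Ryr2, Ryr3 and Itpr1 in CPM in dSPNs, iSPNs and eccentric SPNs, with 1 point per mouse and the mean ± SD of the 3 WT (circles) and 4 HttQ175/+ (squares) mice; each panel has its own scale from 0. Ryr1 of HttQ175/+ mice lay at 20.3 to 51.7 CPM in dSPNs against 249 to 262 CPM in WT, and Ryr2 overlapped between the genotypes in all 3 types.

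Ryr1 was also lower in the other SPNs. In iSPNs the WT mice had 157, 158 and 86.8 CPM and the HttQ175/+ mice 43.8, 48.6, 34.3 and 55.8 CPM, with no overlap. The means were 134 ± 40.8 and 45.6 ± 9.05 CPM (SD, n = 3 and 4), and the log2 change of -1.46 ± 0.26 was called (limma adjusted p = 0.00466). It was lower in 4 of 4 HttQ175/+ mice than in every WT mouse and was called with any 1 mouse left out. These nuclei come from the same 7 libraries as the dSPNs, so the p-value of Ryr1 here is not independent of its choice. The same holds for Ryr1 in oligodendrocytes. In iSPNs of 2000 to under 3000 UMIs (27 to 82 nuclei per mouse) the levels were 187, 106 and 99.3 CPM against 55.9, 0, 40.2 and 14.9 CPM, again without overlap, and the log2 change of -1.94 ± 0.60 was not called (adjusted p = 0.177, where 1.03% of 3012 genes were called). The share of nuclei with Ryr1 was 25.3% ± 5.33 in WT and 7.96% ± 1.53 in HttQ175/+ iSPNs, or 12.1% and 4.80% after thinning. In eccentric SPNs, too few to test, WT mice had 495, 473 and 329 CPM and HttQ175/+ mice 59.7, 51.3, 58.2 and 230.0 CPM. Replicate 4 stood above the other 3 HttQ175/+ mice there and still below every WT mouse. The change in dSPNs minus that in iSPNs was -1.41 ± 0.35 on the log2 scale, a description with no test, since the dSPN value enters it.

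In oligodendrocytes Ryr1 was 153, 99.0 and 87.6 CPM in WT and 13.6, 21.7, 9.36 and 27.6 CPM in HttQ175/+, with a log2 change of -2.01 ± 0.57 that was not called (adjusted p = 0.105). It was called without HttQ175/+ replicate 3 (adjusted p = 0.0216, over all alternatives 0.0216 to 0.225) and with a pseudocount of 5 UMIs. In the same nuclei the 5 iSPN markers summed to 368 to 457 CPM in WT and 123 to 307 CPM in HttQ175/+, without overlap. The 4 SPN markers summed to 2014 to 2575 against 1084 to 2026 CPM and the 5 dSPN markers to 264 to 475 against 224 to 454 CPM, and both overlapped. The 5 oligodendrocyte markers were lower without overlap, at 23301 to 26184 CPM in WT and 9225 to 20085 CPM in HttQ175/+. Higher without overlap were the 3 oligodendrocyte progenitor markers, at 19.98 to 29.06 against 31.51 to 121 CPM. So were the 2 neuroblast markers, at 16.6 to 32.3 against 82.7 to 109 CPM. The other marker lists overlapped. The part of these marker values in the Ryr1 difference was not tested. In Sst interneurons the levels overlapped, at 56.1, 72.3 and 83.0 CPM in WT and 56.4, 7.79, 92.0 and 13.3 CPM in HttQ175/+. Astrocytes had at most 27.8 CPM in any mouse.

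Ryr2, the channel of heart muscle, overlapped between the genotypes in SPNs. In dSPNs the WT mice had 175.03, 198 and 129 CPM and the HttQ175/+ mice 173, 156, 194 and 250.4 CPM, and the groups overlapped. The means were 167 ± 35.5 and 194 ± 40.9 CPM, and the fitted log2 change was 0.08 ± 0.20. In iSPNs the levels were 232, 215 and 144 CPM against 193, 195, 180.1 and 252 CPM, and the change was -0.02 ± 0.21 (limma adjusted p = 0.979, 95% interval -0.48 to 0.43). The sign of these 2 changes turned with the mouse left out and, in iSPNs, with the scaling (0.07 with no scaling), so no direction is given. In Sst interneurons, where Ryr2 was highest, the WT mice had 447, 531 and 401 CPM and the HttQ175/+ mice 409, 354, 423 and 422 CPM. The means of 459.5 ± 65.9 and 402 ± 32.6 CPM overlapped, and the change of -0.18 ± 0.23 was not called (adjusted p = 0.882, 95% interval -0.66 to 0.31). At least 1 UMI was seen in 59.4% and 56.4% of Sst interneuron nuclei in WT and HttQ175/+, and in 31.1% and 33.0% of dSPN nuclei. In eccentric SPNs 3 of the 4 HttQ175/+ mice (151, 229 and 189 CPM) lay below the WT mice (342, 394 and 312 CPM) and replicate 4 lay above them at 402 CPM. In astrocytes Ryr2 was 51.4, 14.3 and 21.0 CPM in WT and 115, 118, 43.9 and 110.0 CPM in HttQ175/+, from 10 and 54 UMIs. Of these HttQ175/+ mice 3 lay above every WT mouse, replicate 3 overlapped with them, and the log2 change of 1.195 ± 0.70 was not called (adjusted p = 0.451). The markers and depths given below for Ryr3 hold for these astrocytes too, and their part was not tested. In oligodendrocytes the values of 104, 54.9 and 50.1 against 124, 120.4, 61.7 and 122 CPM overlapped (0.47 ± 0.35, adjusted p = 0.612). In oligodendrocyte progenitors they were 23.9, 0 and 0 against 89.0, 92.2, 0 and 153 CPM, from 1 and 14 UMIs.

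Ryr3 was lower in HttQ175/+ SPNs by a smaller step. In dSPNs the WT mice had 726, 813 and 558 CPM and the HttQ175/+ mice 510.3, 405, 549.5 and 476 CPM. The groups did not overlap, although WT replicate 3 and HttQ175/+ replicate 3 differed by little. The means were 699 ± 129 and 485 ± 61.4 CPM, with a log2 change of -0.64 ± 0.16. In iSPNs the values were 642, 906 and 586 CPM against 443, 459, 541 and 495 CPM, again without overlap, and the change of -0.62 ± 0.18 was not called (limma adjusted p = 0.0926). Nuclei with exactly 1 UMI were nearly absent for Ryr3, and the part of depth in these values was not tested. In dSPNs of 2000 to under 3000 UMIs Ryr3 was 650.3, 820.1 and 594 CPM in WT and 552, 523, 579.6 and 509 CPM in HttQ175/+, which still did not overlap, and the change was -0.42 ± 0.16. In iSPNs of that depth the groups overlapped and the change was -0.50 ± 0.21 (adjusted p = 0.362). The difference of the changes between dSPNs and iSPNs was 0.00 ± 0.15 (adjusted p = 0.998, 95% interval -0.30 to 0.31).

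In astrocytes Ryr3 lay the other way, at 32.3, 60.3 and 49.7 CPM in WT and 123, 187, 65.7 and 205 CPM in HttQ175/+. Every HttQ175/+ mouse was higher, and the change of 1.17 ± 0.47 was not called (limma adjusted p = 0.287). None of the 4 genes measured there was called, where 0.0% of 1858 genes were, and 1 had an unadjusted p under 0.05, as did 13.8% of all genes. Of the 4, Ryr3 alone lay higher without overlap, against 6.4% of all genes in that direction. With limma-voom 0 of the 4 and 7 genes in all were called. Other values moved with it in the same nuclei. The dSPN markers summed to 52.3 to 123 CPM in WT astrocytes and 138 to 308 CPM in HttQ175/+ astrocytes with none of the 5 at 0. Of these 5, Drd1 lacked nuclei with exactly 1 UMI mostly in WT mice. The part of this in the sum and in the Drd1 shares below was not tested. The 4 SPN markers (442 to 1415 against 469 to 1720.2 CPM) and the 5 iSPN markers (0 to 367 against 112 to 432 CPM) overlapped. No overlap was seen for the 5 oligodendrocyte markers, at 537 to 1021 against 1045 to 2076 CPM. The 4 microglia markers (up to 46.8 against at least 52.6 CPM) and the 3 cholinergic markers (0 against at least 8.62 CPM, with Chat itself at 0) were also higher in every HttQ175/+ mouse. Relative to dSPNs of the same genotype and by summed UMIs, astrocytes had 13.3% of the Ryr3 level in WT and 44.3% in HttQ175/+. For Pde10a these shares were 29.1% and 44.7%. The same shares were 23.7% and 43.9% for Rgs9, 24.3% and 50.0% for Ppp1r1b, 36.7% and 62.9% for Bcl11b, 14.3% and 18.9% for Drd1, and 19.7% and 24.0% for Tac1. These markers were lower in HttQ175/+ dSPNs (Pde10a 4046 to 1700 CPM), which raises such shares. In astrocytes themselves Pde10a went from 1178 to 761 CPM and Rgs9 from 547 to 435 CPM. Of these markers Bcl11b alone was higher there (188 to 198 CPM), and Ryr3 went from 93.8 to 219 CPM. Median depths of these astrocytes were 1463, 1339 and 1472.5 UMIs in WT and 1742, 2032, 1410.5 and 2383 UMIs in HttQ175/+, and the HttQ175/+ mouse of the lowest depth, replicate 3, also had the lowest Ryr3. The part of these values in the Ryr3 difference was not tested.

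Itpr1, the IP3 receptor of neurons, was lower in both main SPN types. In dSPNs the WT mice had 523, 444 and 517 CPM and the HttQ175/+ mice 387, 285, 249 and 291 CPM, with no overlap. The means were 495 ± 43.9 and 303 ± 59.1 CPM and the log2 change was -0.84 ± 0.17. In iSPNs the WT mice had 588, 601 and 651 CPM and the HttQ175/+ mice 356, 349.6, 332 and 366 CPM, with no overlap. The means were 613 ± 33.2 and 351 ± 14.3 CPM, and the change of -0.89 ± 0.16 was called (limma adjusted p = 0.00682) and stayed so with any 1 mouse left out. The dSPN and iSPN changes differed by 0.07 ± 0.17 (adjusted p = 0.964, 95% interval -0.27 to 0.42). In eccentric SPNs the values were 262, 269 and 365 CPM against 140.2, 197, 257 and 234 CPM, also without overlap.

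Nuclei with exactly 1 UMI of Itpr1 were absent from the tables, and the part of depth in the values above was not tested. At 2000 to under 3000 UMIs the dSPN levels were 491, 389 and 485 CPM in WT and 429, 317, 256 and 334 CPM in HttQ175/+. The groups overlapped there, through WT replicate 2 and HttQ175/+ replicate 1, and the change was -0.54 ± 0.21. The iSPN levels of that depth were 503, 501 and 637 CPM against 415, 449.9, 262 and 618 CPM, and the change of -0.43 ± 0.27 was not called (limma adjusted p = 0.568). Within this window HttQ175/+ nuclei were still somewhat shallower, with medians of 2262.5 to 2476.5 UMIs in dSPNs against 2583 to 2604 in WT. Nuclei with Itpr1 made up 48.2% ± 3.50 of WT and 28.5% ± 6.98 of HttQ175/+ dSPNs in all nuclei.

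**Figure D3:**
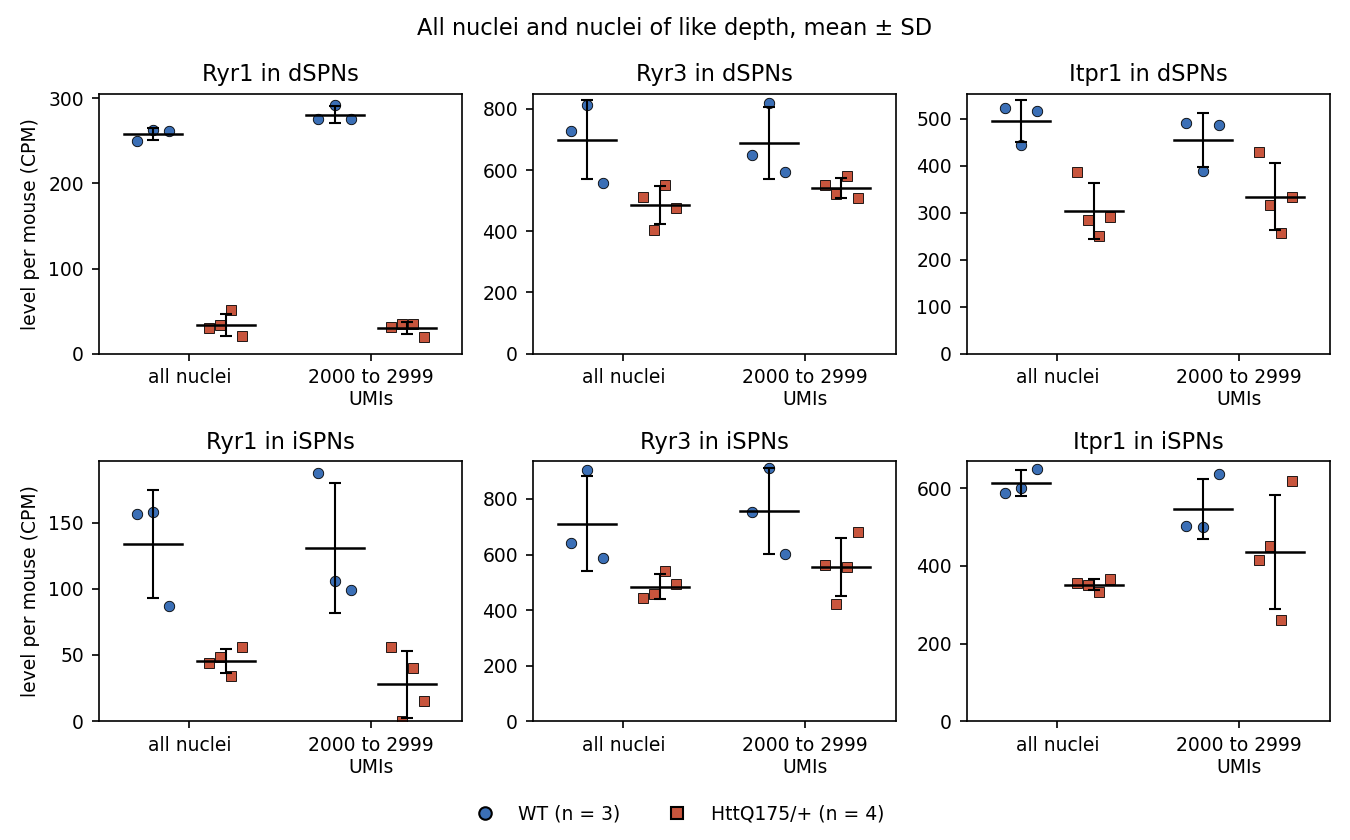
Level in CPM of Ryr1, Ryr3 and Itpr1 in dSPNs (top) and iSPNs (bottom), in all nuclei and in nuclei of 2000 to under 3000 UMIs, with 1 point per mouse and the mean ± SD of 3 WT and 4 HttQ175/+ mice. Ryr1 in dSPNs stayed apart at like depth (275 to 292 against 19.2 to 34.8 CPM), and Itpr1 in iSPNs went from separate groups to overlapping ones.

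In oligodendrocytes and astrocytes Itpr1 overlapped between the genotypes (log2 changes -0.04 ± 0.33 and -0.53 ± 0.45, limma adjusted p = 0.985 and 0.626). In oligodendrocyte progenitors, which were not tested, it was 47.9, 0 and 54.8 CPM in WT and 144, 215, 267 and 257 CPM in HttQ175/+. Only 5 and 33 UMIs stood behind these values.

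Itpr2 overlapped between the genotypes where it was measured best. In astrocytes the WT mice had 295, 169 and 154 CPM and the HttQ175/+ mice 88.6, 107, 265 and 165 CPM. The change was -0.43 ± 0.38 (limma adjusted p = 0.637, 95% interval -1.21 to 0.36). In oligodendrocyte progenitors the values were 374, 291 and 303 CPM against 125, 225, 531 and 543 CPM, from 14 and 37 UMIs. In dSPNs it was 4.69 ± 4.30 CPM in WT and 2.84 ± 1.99 CPM in HttQ175/+, from 5 and 10 UMIs, so it stayed near 0 in both. Itpr3 was at 4.08 ± 2.04 and 4.74 ± 4.83 CPM in dSPNs, from 5 and 15 UMIs. In endothelial nuclei Itpr3 was 174, 217 and 232 CPM in WT and 59.5, 68.9, 131 and 0 CPM in HttQ175/+, from 10 UMIs in each genotype, with too few nuclei to test.

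In the types with the fewest nuclei no test was made. Of 13 WT and 69 HttQ175/+ microglia, Ryr3 was 0, 484 and 404 CPM in WT and 282, 496, 393 and 401 CPM in HttQ175/+, and Itpr1 was 720.5, 374 and 370 CPM against 325, 376, 107 and 159 CPM. In Pnoc/Pvalb interneurons Ryr2 was 456, 271 and 328 CPM against 338, 257, 134 and 267 CPM. Cholinergic interneurons held 6 WT nuclei, with 2 UMIs of Ryr2, and 67 HttQ175/+ nuclei with Ryr2 at 287, 187, 129 and 137 CPM. All 6 genes overlapped between the genotypes in these 3 types and in SPNs of unknown subtype. So did all but Itpr1 in oligodendrocyte progenitors and all but Itpr3 in endothelial nuclei. The share of all genes that overlapped was not computed for these types. Several mice there had few nuclei (4, 1 and 1 cholinergic nuclei in WT) and 0 UMIs of a gene, so nothing is read from these overlaps.

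**Figure D4:**
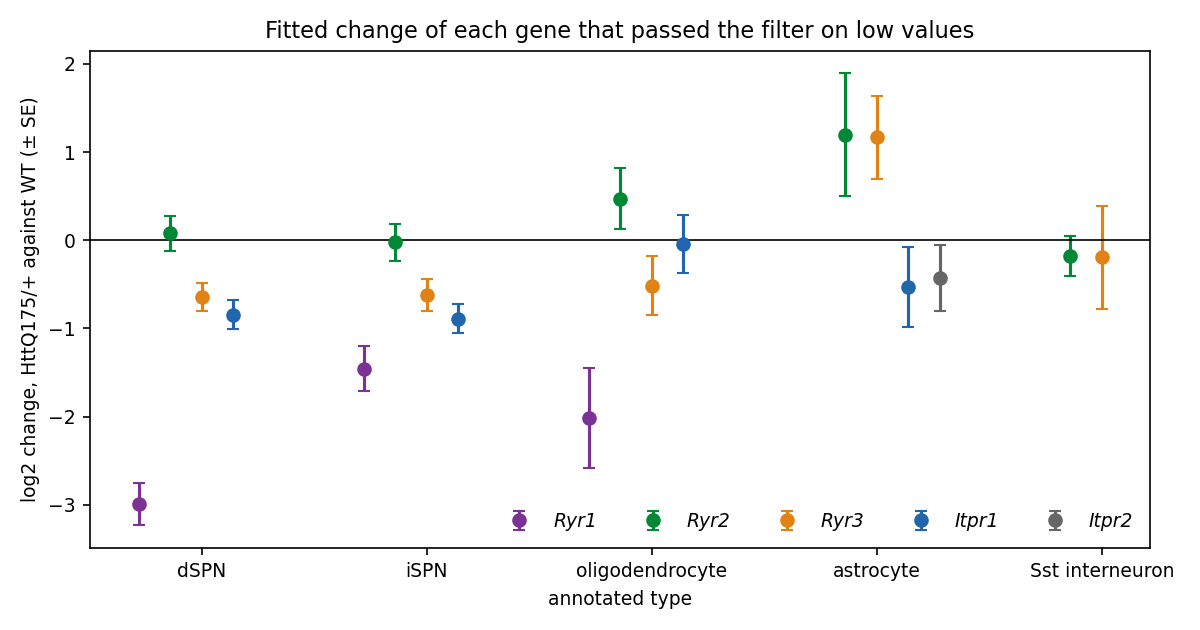
Fitted log2 change (HttQ175/+ against WT) ± SE of each of the 6 genes that passed the filter on low values in each tested type. Ryr1 in dSPNs is at -2.99, Ryr3 and Itpr1 lie between -0.62 and -0.89 in both SPN types, and Ryr2 is near 0 in both.

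In dSPNs 4 of the 6 genes passed the filter on low values and 3 of them were called, all lower, where 3.94% of 8790 genes were called and 2.54% were called lower. The rule that chose the genes used this contrast, so nothing is read from that count. In iSPNs 4 passed the filter and 2 were called lower, where 2.22% of 5894 genes were called and 1.7% were called lower. The 2 were Itpr1 and Ryr1, and Ryr1 was chosen from dSPNs of the same libraries. Without overlap between the genotypes were 3 genes in dSPNs and 3 in iSPNs (Ryr1, Ryr3 and Itpr1), all lower, against 5.23% and 5.41% of all genes in that direction. In eccentric SPNs 2 of the 4 measured genes (Ryr1 and Itpr1) lay lower without overlap, against 7.65% of 758 genes. The median log2 change of the 4 measured genes was -0.74 in dSPNs and -0.76 in iSPNs, beside 0.02 and 0.01 over all genes tested. In oligodendrocytes 0 of 4 genes were called by limma, where 0.604% of 3641 genes were, with 1 at an unadjusted p under 0.05 (13.2% of all genes) and 0 by limma-voom. There 1 gene, Ryr1, lay lower without overlap, against 4.37% of all genes. In Sst interneurons 0 of 2 genes were called, where 0.0% of 2233 genes were, with 0 at an unadjusted p under 0.05 (7.43% of all genes) and 0 by limma-voom. Of Ryr2, Ryr3 and Itpr1, 0 were called by limma between dSPNs and iSPNs in WT mice, where 1.21% of 8686 genes were, with 1 (Itpr1) at an unadjusted p under 0.05 (11.1% of all genes) and 0 by limma-voom.

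Values of another kind moved with genotype in the same nuclei. The 4 SPN markers summed to 7073 to 7589 CPM in WT and 3068 to 3439 CPM in HttQ175/+ dSPNs, and to 7880.4 to 8022 against 3446 to 3970.0 CPM in iSPNs, with none at 0. The 4 eccentric SPN markers summed to 67.1 to 85.9 CPM in WT dSPNs and to 101 to 140.2 CPM in HttQ175/+ dSPNs. The cortical excitatory markers summed to 3.12 to 10.1 against 18.3 to 37.7 CPM in dSPNs. Their part in the changes of the channel genes was not tested.

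Whether other members made up for the lower ones was read from summed molecules per mouse. These sums count captured tags, in which nuclei with 1 UMI of Itpr1 or Ryr3 are missing or nearly so. In dSPNs the 6 genes together were at 1676, 1729.7 and 1479 CPM in WT and 1109, 895, 1050.2 and 1039 CPM in HttQ175/+, so every HttQ175/+ mouse was lower. The means of 1628 ± 132 and 1023 ± 90.8 CPM put HttQ175/+ at 62.8% of WT. The ryanodine receptors stood at 63.4% of WT (1124 ± 164 to 712 ± 85.6 CPM) and the IP3 receptors at 61.7% (504 ± 41.3 to 311 ± 59.7 CPM). In iSPNs all 6 went from 1665 ± 207 to 1089.7 ± 59.6 CPM, or 65.5% of WT, with 70.6% for the ryanodine receptors and 56.9% for the IP3 receptors. Eccentric SPNs stood at 62.9% of WT (1207 ± 67.5 to 759 ± 248 CPM). None of these sums overlapped between the genotypes, and no test was made of them, since the members were chosen with results known.

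**Figure D5:**
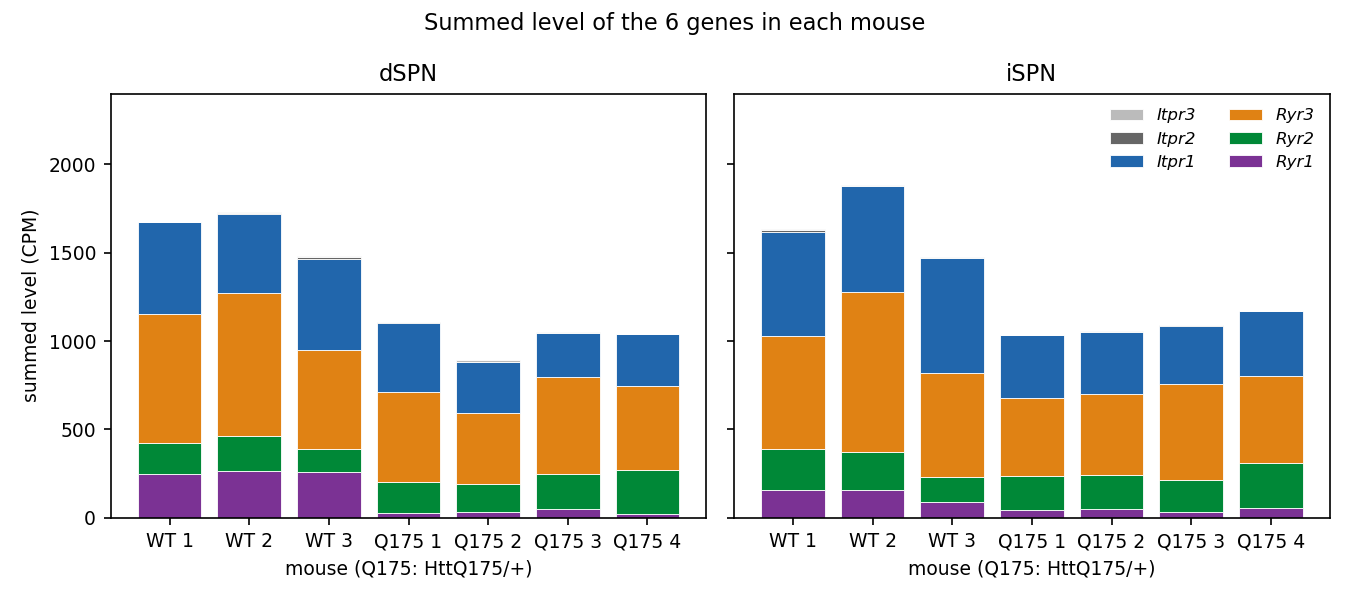
Summed level of the 6 genes in CPM in each mouse, in dSPNs (left) and iSPNs (right), with 1 bar per mouse stacked by gene. The dSPN bars reach 1479 to 1729.7 CPM in WT and 895 to 1109 CPM in HttQ175/+ mice.

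Higher means of other members made up little of the difference. In dSPNs the mean differences of the 4 lower members summed to -631.8 CPM, with -224 CPM for Ryr1, -214 CPM for Ryr3 and -191.7 CPM for Itpr1. Those of the 2 others summed to 26.9 CPM, with 26.3 CPM for Ryr2, which is 4.26% of that sum. In iSPNs the 5 lower members summed to -582.8 CPM, with -262 CPM for Itpr1, -227 CPM for Ryr3 and -88.2 CPM for Ryr1. Ryr2 was higher there by 7.93 CPM, or 1.36% of that sum, a difference within its spread between mice. The make-up of the family was read as shares. The share of a member rises when the others are lower, even if its own level stays the same. Ryr1 went from 15.3% ± 1.48 to 3.31% ± 1.33 of the family's molecules in dSPNs and Ryr2 from 9.63% ± 1.14 to 18.7% ± 3.31. Ryr3 (43.4% to 46.9%) and Itpr1 (31.3% to 30.4%) overlapped. In iSPNs Ryr1 went from 7.91% to 3.81% and Ryr2 from 11.1% to 18.8%. At like depth the dSPN sum was 1589.7 ± 85.7 CPM in WT and 1111 ± 69.2 CPM in HttQ175/+ (69.9%), still without overlap. The iSPN sum was 1634 ± 153 and 1259 ± 276 CPM (77.1%) and overlapped, with HttQ175/+ replicate 4 at 1652 CPM. Ryr2 means at that depth were 158 ± 15.8 and 198 ± 43.1 CPM in dSPNs, and 186 ± 67.3 and 236 ± 66.1 CPM in iSPNs. Both overlapped between the genotypes, but lay further apart than in all nuclei, from which the 4.26% and 1.36% above come. In astrocytes the 3 ryanodine receptors summed to 92.4, 83.3 and 98.5 CPM in WT and 242, 327, 109.6 and 334 CPM in HttQ175/+, beside the markers of other types given above. In Sst interneurons all 6 stood at 713 ± 71.9 and 634 ± 128 CPM and overlapped.

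Genes that fill the store, open the channels or make IP3 were taken from a list of 98 partners set by role, chosen with earlier results of these data known. Of 61 measured in dSPNs, 2 were called higher and 7 lower, where 3.94% of all genes were called and 2.54% were called lower, with a median log2 change of -0.10 beside 0.02 for all genes. Without WT replicate 1 the 9 calls came to 3. Of 55 in iSPNs, 0 were called higher and 3 lower, where 2.22% of all genes were called and 1.7% were called lower (median -0.24 beside 0.01). An unadjusted p under 0.05 was found for 23 of the 61 in dSPNs, beside 17.6% of all genes. In dSPNs the called genes fell in 4 roles. Of the genes for IP3 breakdown (3 measured), proteins that bind IP3 receptors (10) and store-operated entry (5), 0 were called by limma, with 0, 3 and 0 at an unadjusted p under 0.05 and 0, 1 and 0 by limma-voom. In astrocytes (24 measured), oligodendrocytes (37) and Sst interneurons (34) no partner was called by limma or limma-voom, with 2, 5 and 4 at an unadjusted p under 0.05, beside 13.8%, 13.2% and 7.43% of all genes.

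Among pumps and proteins of the calcium store, 1 of 6 was called. Rcn1, which binds calcium inside the store, fell in dSPNs from 42.6, 48.0 and 38.2 CPM to 7.96, 22.8, 11.5 and 4.49 CPM (log2 change -1.84 ± 0.36, limma adjusted p = 0.00903). Without WT replicate 1 its adjusted p was 0.0505. Among 17 measured genes of the ryanodine receptor complex and its regulators 2 were called, both subunits of the calcium/calmodulin kinase that phosphorylates these channels. Camk2b fell from 828, 1047 and 936 CPM to 593, 455, 499 and 524 CPM in dSPNs (-0.98 ± 0.14, adjusted p = 0.0013). In iSPNs it fell from 944, 1036 and 864 CPM to 585, 501, 507 and 573 CPM (-0.90 ± 0.16, adjusted p = 0.00442). Camk2d rose in dSPNs from 0, 11.2 and 9.35 CPM to 62.5, 45.2, 59.4 and 26.3 CPM (2.40 ± 0.45, adjusted p = 0.00763). These 2 kinase subunits thus moved in opposite directions in dSPNs, and both were called with any 1 mouse left out.

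Of 12 measured surface calcium channel genes 3 were called in dSPNs, all lower. Cacna1e, the pore of R-type channels, went from 609 ± 23.1 to 426 ± 91.8 CPM (-0.66 ± 0.16, limma adjusted p = 0.0348). The auxiliary subunits Cacna2d3 and Cacnb2 went from 321 ± 35.3 to 181 ± 30.8 CPM and from 360.3 ± 62.2 to 245 ± 29.9 CPM (adjusted p = 0.0048 and 0.0342). In iSPNs Cacna1e (-0.75 ± 0.17) and Cacnb2 (-0.93 ± 0.19) were called lower as well (adjusted p = 0.0282 and 0.0136). The calls of Cacna1e and Cacnb2 were lost on leaving out 3 to 6 of the 7 mice in turn, among them WT replicate 1 in both types (highest adjusted p = 0.157, Cacnb2 in dSPNs). In WT mice Cacnb2 (-0.61 ± 0.14), Cacna2d2 (-0.63 ± 0.16) and Cacna1e (-0.48 ± 0.12) were lower in dSPNs than in iSPNs (limma adjusted p from 0.0163 to 0.0426). They were the only partners called of 60 measured there, where 1.21% of 8686 genes were called and 0.518% were called lower. With limma-voom 2 partners were called.

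On the IP3 side 3 of 8 measured genes for receptors and IP3 production were called in dSPNs. Of these, 2 are described here. Grm5, a metabotropic glutamate receptor, fell from 1444, 1509.6 and 1406 CPM to 1019, 864, 1119.7 and 1127 CPM (-0.63 ± 0.13, limma adjusted p = 0.0109). It lost the call without WT replicate 1 (adjusted p = 0.0555). The serotonin receptor Htr2c rose from 81.3, 85.7 and 65.8 CPM to 157, 129, 192 and 129 CPM (0.80 ± 0.19, adjusted p = 0.0277), with the call lost on leaving out HttQ175/+ replicate 1 or 3 or WT replicate 1 or 3. In dSPNs of like depth only Camk2b (adjusted p = 0.0262) and Grm5 (adjusted p = 0.0346) of the 9 called partners were called, where 1.81% of 5678 genes were, and in iSPNs of like depth Camk2b, Cacna1e and Cacnb2 had adjusted p of 0.286, 0.119 and 0.113. Of nuclei with Camk2b or Grm5, 0 held exactly 1 UMI, and the share was 0.127% for Cacna1e and 4.79% for Cacna2d3. For Cacna2d3 it was 5.26% and 25.9% in HttQ175/+ replicates 1 and 3 and 0% in every other mouse. For Cacnb2 the share differed by genotype, at 15.97% to 44.9% in WT mice and 64.3% to 72.6% in HttQ175/+ mice. The part of these shares in the changes of Cacna2d3 and Cacnb2 was not tested.

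Genes with the most like pattern over the 12 types in WT mice were ranked by Pearson r of log2 of CPM plus 20 among 9643 genes, a description over types that share libraries. Nearest to Ryr1 were Vipr1 (r = 0.94), Kcnip2 (0.93), Smad3 (0.92), Dlg1 (0.92) and Inf2 (0.91). Ryr3 lay near Arpp21 (0.97), Rasgrp2 (0.97), Thbs3 (0.96), Ptk2b (0.96) and Rgs9 (0.96), of which Rgs9 is 1 of the SPN markers. Itpr1 lay near Cnst (0.90) and the SPN marker Ppp1r1b (0.89), then Fam214a, Mark3 and Cbr3 (each 0.87). Ryr2 had no gene above Mest at 0.87. Itpr2 was followed by Serhl (0.98) and Stat3 (0.91), and Itpr3, which rests on 10 endothelial UMIs, by Ifitm1 (0.99). Within the family Ryr1 and Ryr3 had r = 0.77, Ryr3 and Itpr1 0.67, and Ryr2 and Itpr2 -0.71.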

How the data were processed

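Single-nucleus RNA was measured in the striatum of 3 WT and 4 HttQ175/+ mice. Per the labels' protocols, nuclei came from flash-frozen tissue and libraries from a Chromium 3' kit. Per the submitters' processing notes, Cell Ranger 3.0.2, Seurat and mm10 were used. The authors deposited natural log values, ln(1 + UMIs per 10000 UMIs of the nucleus), and a table of cell types, which were used as given. Whole UMIs were recovered for 100.0% of 5824756 values above 0 (within 0.02 of a whole number). The main test was limma on log2 CPM and not a count model, because the deposited unit is a log value. The recovered UMIs were used with limma-voom as an alternative.

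Nuclei of a mouse and type were averaged as CPM, scaled by TMM and tested on log2(CPM + a pseudocount worth 2 UMIs) with limma 3.58.1 (limma-trend) in R 4.3.3, so changes of low genes are understated. Pseudocounts ran from 3.67 CPM (dSPNs) and 8.31 CPM (iSPNs) to 22.7 CPM (astrocytes). Genes needed 15 UMIs in all and 10 UMIs at the median library in 3 mice, and types 10 nuclei in 3 mice per genotype. P-values were Benjamini-Hochberg adjusted over all genes of a fit. The scripts were tested on simulated data. Scrublet marked 53 nuclei (1.17%), which were kept. Nuclei held 1128 to 5632 UMIs, and thinning drew 1100.

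All 6 genes were measured in every type, those of few UMIs are given only as overlapping, and partners are named where called, except 1 that is not reported here. The members and lists were chosen with earlier results of these data known. Replicate numbers follow the order of samples and pair nothing, and p-values measure the spread between mice. Intervals and limits of summed counts cover counting error only, and are too narrow for Ryr3 and Itpr1. Alternatives were other pseudocounts, scalings, filters, summed UMIs, limma-voom, doublets removed, each mouse left out and, chosen after seeing the data, nuclei of 2000 to under 3000 UMIs. Python 3.11.15 was used.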

Additional observations from a re-analysis of the deposited data

Results flagged for a closer look

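Of 40 groups of 4 HttQ175/+ mice tested for a mouse apart from the others, 7 had one. The rule flags about 1 in 20 groups of continuous values. A group with only 1 mouse above 0 is flagged at any level, as for Itpr2 in iSPNs and Itpr3 in eccentric SPNs and Sst interneurons. The count of 7 is thus not set against that rate. Ryr1 in eccentric SPNs was 230.0 CPM in HttQ175/+ replicate 4 (13 UMIs in 35 nuclei), above the other 3 mice. Ryr2 was low in replicate 3 in astrocytes, at 43.88 CPM from 3 UMIs, and in oligodendrocytes, at 61.68 CPM. The other 4 rest on few UMIs. Itpr2 in iSPNs was 4.613 CPM in replicate 3 from 1 UMI. Itpr3 was 11.92 CPM in dSPNs of replicate 2 from 10 UMIs, 20.17 CPM in eccentric SPNs of replicate 1 from 1 UMI, and 10.58 CPM in Sst interneurons of replicate 2 from 1 UMI.

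Ryr3 lay in opposite directions in different types. Its mean in astrocytes was 97.8 CPM higher in HttQ175/+ mice, with every mouse above WT, while every HttQ175/+ mouse was below WT in dSPNs and in iSPNs. The difference between the types was not tested.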

How the results depend on the processing

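Over the fitted changes and differences of single members, leaving out 1 mouse kept direction and call in 204 cases, turned the sign in 17, ended a call in 9 and added one in 3, and the other alternatives did so in 243, 15, 6 and 3. The cause was not tested. The only member called between dSPNs and iSPNs in WT mice in any alternative was Ryr1. Its calls there, and calls of members in dSPNs, are given here and below as a description only. The Ryr1 values of dSPNs entered the choice of genes, so nothing is read from these counts. Restricted to nuclei of 2000 to under 3000 UMIs, the called genes were 1 of the 6 members, 103 genes and 2 partners in dSPNs, and 0, 31 and 0 in iSPNs. There the sums changed by -120.2 CPM (IP3 receptors) and -478.8 CPM (all 6) in dSPNs and by -119.9 and -374.9 CPM in iSPNs, and shares of nuclei by -26.8 percentage points (Ryr1, dSPNs), -9.33 (Ryr1, iSPNs), -13.1 (Itpr1, iSPNs) and 0.164 (Ryr2, iSPNs, against -2.45). Without thinning the shares changed by -38.6 (Ryr1), -17.9 (Ryr3) and -19.8 (Itpr1) in dSPNs and by -17.3 (Ryr1) and -24.5 (Itpr1) in iSPNs. With TMM scaling the sum of all 6 in dSPNs changed by -727.9 CPM and that of IP3 receptors in iSPNs by -304.0 CPM, or by -245.2 CPM from summed UMIs. With a pseudocount of 5 UMIs the calls were 5 partners in iSPNs, 1 gene in astrocytes, 1 member and 45 genes in oligodendrocytes, and 1 member between dSPNs and iSPNs. With limma-voom they were 7 partners in iSPNs, 7 genes in astrocytes and 1 member between dSPNs and iSPNs. With no filter on low genes they were 2 genes in oligodendrocytes and 2 in Sst interneurons.

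Leaving out each mouse gave 1 to 3 members called in dSPNs (1 without WT replicate 1), 192 to 315 genes and 3 to 12 partners, and in iSPNs 55 to 139 genes and 1 to 5 partners. It gave 0 to 8 genes in astrocytes, 0 to 1 members and 1 to 133 genes in oligodendrocytes (133 without HttQ175/+ replicate 3), 0 to 1 genes in Sst interneurons and 0 to 1 members between dSPNs and iSPNs. Changes near 0 turned sign. Ryr2 ran from -0.091 to 0.20 in dSPNs (-0.045 without HttQ175/+ replicate 4) and from -0.22 to 0.091 in iSPNs, where no scaling gave 0.071, summed UMIs 0.096, limma-voom 0.12 and like depth 0.29. Itpr1 in oligodendrocytes ran from -0.28 to 0.17, with 0.034, 0.013, 0.096 and 0.067 under no scaling, no filter, summed UMIs and limma-voom. Ryr3 in Sst interneurons ran from -0.62 to 0.16, and over all alternatives from -1.51 to 0.16. The dSPN minus iSPN level of Ryr3 ran from -0.13 to 0.065, with 0.0084, 0.026 and 0.017 under no filter, summed UMIs and limma-voom. The difference of changes ran from -0.075 to 0.12 for Ryr3 (-0.012 from summed UMIs and -0.0093 from limma-voom) and from -0.043 to 0.17 for Itpr1 (-0.059 at like depth), and was -0.048 for Ryr2 at like depth. No paired analysis was possible because the labels give no replicate numbers that link mice across genotypes. Depth limits Itpr2 and Itpr3 in SPNs, where each dSPN group held 15 UMIs or fewer of either gene.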
